A study of Mus musculus with 10 samples.

Results

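The 10 genes described here encode subunits of the Polycomb repressive complexes and the partner protein ASXL1. They were taken by gene symbol from the deposited count table: Ezh1, Ezh2, Eed and Suz12 for Polycomb repressive complex 2 (PRC2), Bmi1, Ring1, Rnf2, Cbx7 and Cbx2 for Polycomb repressive complex 1 (PRC1), and Asxl1. All 10 were found among the 24544 genes of the table, and all 10 passed the filter on low counts that retained 12203 genes. RNA-seq libraries were made from long-term hematopoietic stem cells, which can rebuild the blood of a transplanted host, taken from bone marrow of Hoxb5-mCherry mice of 2 to 3 months, whose mCherry protein marks Hoxb5 expression. One gate was shared by all libraries (Lin-, cKIT+ and SCA1+ with CD150+, then CD48-, FLK2- and CD34-, and Hoxb5+), and 5 libraries held NEO1+ cells and 5 held NEO1- cells, by surface neogenin-1. The series asks whether neogenin-1 separates myeloid-biased from balanced stem cells. Each library was made from 250 to 500 cells of 2 pooled mice, and the sex of the mice was not given in the labels.

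Polycomb proteins keep developmental and cell cycle inhibitor genes silent. PRC2 places methyl groups on lysine 27 of histone H3 through its catalytic subunit, EZH1 or EZH2, held together by EED and SUZ12. PRC1 attaches ubiquitin to histone H2A through RING1 or RNF2 (also called RING1B), and its CBX subunits bind the methyl mark of PRC2. ASXL1 works with the enzyme BAP1, which removes ubiquitin from histone H2A in the Polycomb repressive deubiquitinase complex (PR-DUB). In blood, Bmi1 is known to be needed for stem cell self-renewal, and ASXL1 and EZH2 are recurrently mutated in myeloid neoplasms.

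Library totals ran from 21.2 to 38.9 M counts, and levels are given in CPM, the usual counts relative to library size, after scaling of library sizes by trimmed means (TMM). Genes detected numbered 12800 to 13808 in NEO1+ and 11477 to 13147 in NEO1- libraries. The ribosomal RNA precursor Rn45s held 27.9% to 37.7% of counts in NEO1+ and 30.7% to 42.4% in NEO1- libraries. Neo1 itself was at 12.5 to 64.8 CPM (NEO1+) and 4.56 to 18.9 CPM (NEO1-). The groups overlapped because NEO1+ library 4 (12.5 CPM) lay below NEO1- library 1 (18.9 CPM). The other NEO1- libraries were at 4.56 to 12.2 CPM. All 12 stem cell markers checked were tested and had counts, with sums of 2368 to 2718 CPM (NEO1+) and 2355 to 2777 CPM (NEO1-). They include the genes of cKIT, SCA1, CD150 and Hoxb5, which were part of the gate and are no independent check. The 12 granulocyte and monocyte markers summed to between 493 and 5110 CPM for NEO1+ and between 382 and 3080 CPM for NEO1-, with the highest sums in NEO1+ libraries 1 and 3 and in NEO1- library 3. The 10 erythroid markers summed to 1486 to 2233 CPM (NEO1+) and 1412 to 1724 CPM (NEO1-), with Hbb-b1 at 0 in all libraries. All 8 erythroid markers tested had a log2 fold change of NEO1+ over NEO1- above 0, with a median of 1.51. This held for 51.0% of all genes tested. The 9 megakaryocyte and platelet markers summed to 197 to 233 CPM (NEO1+) and 117 to 202 CPM (NEO1-), and the ranges below are in the same order. The 8 endothelial and stromal markers summed to 81.4 to 118 and 41.5 to 85.3 CPM, with Cdh5 and Lepr at 0 in all 10 libraries. The 8 B cell markers summed to 34.1 to 51.7 and 26.1 to 60.9 CPM, with Ms4a1, Igll1 and Pax5 at 0 in all libraries. The 7 T and NK cell markers in the table summed to 26.0 to 47.9 and 12.9 to 52.7 CPM, with Cd3e and Cd8a at 0 in all libraries. In bulk samples a change in the share of cells of one kind and a change in RNA per cell cannot be told apart. The labels name no separate cultures or litters beyond the pools of mice, so p-values measure the spread between these libraries.

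None of the 10 Polycomb genes passed an adjusted threshold of 0.05 in the quasi-likelihood test of edgeR (lowest Benjamini-Hochberg adjusted p 0.721, for Ezh1). The test called 0 of 12203 genes at that threshold (0%), while 806 (6.60%) had an unadjusted p under 0.05. DESeq2 called 146 of 14606 genes (1.0%), of which 0 were among the 10. DESeq2 with the replicate numbers as a block called 742 of 13029 genes (5.69%). In this fit Ezh1 (log2 fold change 0.82, adjusted p 0.0176) and Rnf2 (0.77, adjusted p 0.0376) were among the genes called. The labels do not say whether the numbers pair the libraries. Among the 10 genes, 1 had an unadjusted edgeR p under 0.05, namely Ezh1, against 6.60% of all genes. With DESeq2 this count was 2 (Ezh1 and Rnf2), against 9.73% of all genes, and with the replicate numbers as a block in edgeR it was also 2, against 7.16%. The log2 fold change of NEO1+ over NEO1- was above 0 for 8 of the 10 genes, against 51.0% of all genes tested, and its median was 0.25 against 0.01. With the replicate block the median of the 10 was 0.43, and that of all genes tested was 0.10. When 1 library was left out the median of the 10 was 0.20 to 0.41, the highest without NEO1- library 3. That of all genes was then 0.01 to 0.02. The members and this comparison were chosen with earlier results of these data known, so the count is a description. In 0 of the 10 genes were the libraries of both groups apart without overlap, whereas this held for 2.48% of all genes tested. The Neo1 level of NEO1+ library 4 lay below that of NEO1- library 1. Without NEO1+ library 4, 8 of 10 genes were again above 0 and Ezh1 had a log2 fold change of 0.68 (unadjusted edgeR p 0.0620). Without NEO1- library 1, 8 of 10 were above 0 and Ezh1 was at 0.67 (unadjusted edgeR p 0.0618).

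**Figure D1:**
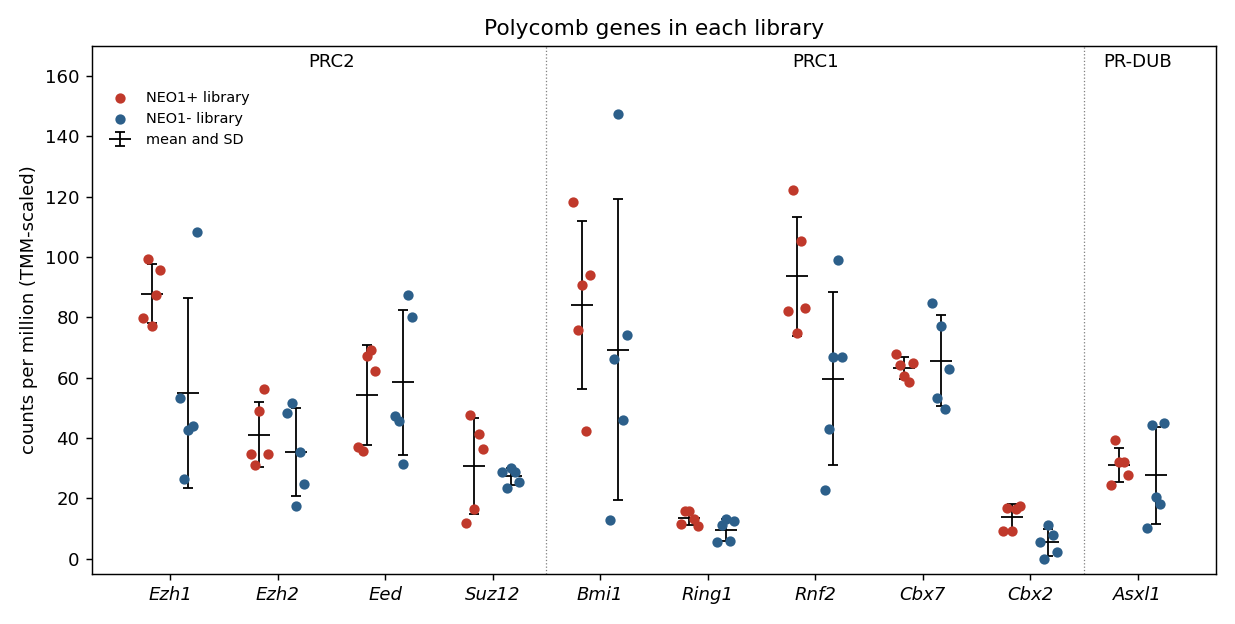
Levels of the 10 Polycomb genes in CPM (vertical axis) in 5 NEO1+ (red) and 5 NEO1- (blue) libraries, with the mean and SD of each group in black. The groups overlap in every gene, and 4 of 5 NEO1- libraries lie below all NEO1+ libraries for Ezh1, Rnf2 and Cbx2.

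The start regions of Ezh1 and Rnf2 are shown because these genes had the smallest unadjusted p among the 10, and that of Suz12 because it held a match to the words searched. RefSeq start regions on GRCm38.p6 were matched by symbol for 9 of the 10 genes, Cbx2 not being in the table. Each window is the 250 bases before the start on the gene's own strand, 5′ to 3′. GENCODE annotates no exon of the gene itself in the 3 windows printed, but annotates 125 such bases in that of Ezh2, 122 in that of Cbx7, 7 in that of Eed and 1 in that of Asxl1. Capitals mark words that E2F cell cycle factors are known to bind (TTTCCCGC, TTTGGCGC, TTTCGCGC or TTTGCCGC, searched on both strands). The Ezh1 window lies at chr11:101226464-101226713 on the minus strand, the Rnf2 window at chr1:151500992-151501241 on the minus strand and the Suz12 window at chr11:79992856-79993105 on the plus strand.
Ezh1: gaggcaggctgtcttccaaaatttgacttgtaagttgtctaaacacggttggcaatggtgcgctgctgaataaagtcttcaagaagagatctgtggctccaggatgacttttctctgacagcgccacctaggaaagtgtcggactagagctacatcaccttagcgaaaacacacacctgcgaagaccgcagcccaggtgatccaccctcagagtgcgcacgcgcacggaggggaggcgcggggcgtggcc
Rnf2: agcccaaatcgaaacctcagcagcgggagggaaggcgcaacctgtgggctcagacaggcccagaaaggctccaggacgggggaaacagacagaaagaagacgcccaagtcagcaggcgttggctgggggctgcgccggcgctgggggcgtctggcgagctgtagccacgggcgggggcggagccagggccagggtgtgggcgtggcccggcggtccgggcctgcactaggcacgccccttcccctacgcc
Suz12: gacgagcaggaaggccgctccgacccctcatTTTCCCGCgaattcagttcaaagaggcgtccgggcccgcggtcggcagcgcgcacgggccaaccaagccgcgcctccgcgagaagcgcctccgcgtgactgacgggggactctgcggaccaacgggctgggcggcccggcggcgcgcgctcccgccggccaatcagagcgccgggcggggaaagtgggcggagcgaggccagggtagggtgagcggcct
The Suz12 window held 1 such word, beginning 219 bases before the start, and the other 8 members held none, against 1.86% of 32851 windows of the same length. The word CCAAT, searched on both strands, was in the windows of Ezh2 (3 matches), Suz12 (1 match, apart from the E2F word) and Cbx7 (1 match), and in 33.9% of all windows. A match describes letters in a window and not a bound site.

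Ezh1 encodes the PRC2 methyltransferase that predominates in cells that divide little. Ezh1 stood at 79.9, 99.4, 77.1, 87.4 and 95.6 CPM in NEO1+ libraries 1 to 5 and at 53.4, 26.4, 42.6, 43.9 and 108 CPM in NEO1- libraries 1 to 5. The NEO1+ libraries lay close together, and 4 of the 5 NEO1- libraries were below all of them, while NEO1- library 5 had the highest level of all 10. The means were 87.9 ± 9.64 CPM over NEO1+ against 55.0 ± 31.5 CPM over NEO1- (SD, n = 5 per group), giving a log2 fold change of 0.68 (SE 0.30, 95% interval 0.03 to 1.32, unadjusted edgeR p 0.0406, adjusted p 0.721). Without NEO1- library 5 the groups no longer overlapped and the log2 fold change was 1.08 (unadjusted edgeR p 2.29e-04, adjusted p 0.181), with 4.56% of all genes tested then apart without overlap. In the other 9 fits that left out 1 library it was 0.50 to 0.72, with an unadjusted edgeR p of 0.0477 to 0.0876. When the count of detected genes entered the fit it was 0.56 (unadjusted edgeR p 0.238, adjusted p 0.9998).

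Ezh2 encodes the PRC2 methyltransferase that is most abundant in dividing cells. Its levels were 34.6, 31.1, 48.8, 56.3 and 34.8 CPM in NEO1+ libraries 1 to 5 and 48.2, 51.5, 17.5, 35.4 and 24.6 CPM in NEO1- libraries 1 to 5. The groups were interleaved, with the highest level in NEO1+ library 4 and the lowest in NEO1- library 3. The log2 fold change was 0.21 (SE 0.31, 95% interval -0.45 to 0.87, edgeR adjusted p 0.996), an interval that held both 0 and the value of 0.68 fitted for Ezh1. Whether the 2 paralogues differ in fold change was not tested.

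The structural subunits of PRC2 also overlapped between the groups. Eed, whose protein binds the methyl mark and stimulates the enzyme, was at 37.0, 35.7, 67.1, 69.3 and 62.3 CPM in NEO1+ libraries 1 to 5 and at 47.3, 45.5, 31.4, 87.5 and 80.2 CPM in NEO1- libraries 1 to 5. NEO1- libraries 4 and 5 were the highest of all and NEO1- library 3 the lowest, and the log2 fold change was -0.11 (SE 0.30, edgeR adjusted p 0.998). Its sign turned in 4 of the 10 fits that left out 1 library, and it was -0.82 when the count of detected genes entered the fit (unadjusted edgeR p 0.0223, adjusted p 0.9998).

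Suz12 encodes the scaffold of PRC2. It was at 11.7, 47.7, 16.3, 41.2 and 36.5 CPM in NEO1+ libraries 1 to 5 and at 28.7, 23.3, 30.2, 28.6 and 25.5 CPM in NEO1- libraries 1 to 5. The NEO1- libraries lay within a narrow band, and the NEO1+ libraries fell on both sides of it, with 3 above and 2 below. The log2 fold change was 0.17 (SE 0.36, edgeR adjusted p 0.998) and -0.04 without NEO1+ library 2. The libraries below the band were NEO1+ libraries 1 and 3, in which the granulocyte and monocyte markers summed to 2941 and 5110 CPM, against 493 to 878 CPM in the other NEO1+ libraries. In NEO1- library 3, with a marker sum of 3080 CPM, Suz12 was at the highest level of the NEO1- libraries. The part of these markers in the Suz12 levels was not tested.

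Rnf2, which encodes the main ubiquitin ligase of PRC1, was next to Ezh1 in unadjusted p. It stood at 82.2, 122, 74.7, 105 and 83.2 CPM in NEO1+ libraries 1 to 5 and at 22.6, 43.0, 66.7, 98.9 and 66.8 CPM in NEO1- libraries 1 to 5. All NEO1+ libraries were above 4 of the 5 NEO1- libraries, and NEO1- library 4 lay among the NEO1+ libraries. The log2 fold change was 0.65 (SE 0.31, 95% interval -0.02 to 1.32, unadjusted edgeR p 0.0553, adjusted p 0.766). It was 0.91 without NEO1- library 4 (adjusted p 0.415) and 0.44 without NEO1- library 1 (adjusted p 0.758), and 0.21 when detected genes entered the fit (adjusted p 0.9998). NEO1- library 4 had the most genes detected of its group (13147) and NEO1- library 1 the fewest (11477). NEO1- library 3, with 11593 genes detected, had Rnf2 at 66.7 CPM, and NEO1- library 2, with 12053, at 43.0 CPM. Genes detected also differed between the groups (12800 to 13808 in NEO1+, 11477 to 13147 in NEO1-). The part of genes detected in the Rnf2 levels was not tested.

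Ring1, the paralogue of Rnf2, was lower in level. It was at 11.5, 15.7, 15.7, 13.1 and 10.9 CPM in NEO1+ libraries 1 to 5 and at 5.57, 11.004, 13.1, 5.90 and 12.5 CPM in NEO1- libraries 1 to 5. NEO1- libraries 1 and 4 were below the rest, and the other 3 lay within the NEO1+ range. The log2 fold change was 0.47 (SE 0.43, edgeR adjusted p 0.953).

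Bmi1, whose protein pairs with RING1 or RNF2 in canonical PRC1, varied most between libraries among the genes with counts in all 10. It was at 118, 75.9, 90.6, 42.5 and 93.9 CPM in NEO1+ libraries 1 to 5 and at 12.8, 66.1, 148, 46.0 and 74.2 CPM in NEO1- libraries 1 to 5. Both the lowest and the highest library were NEO1-, 11.6-fold apart, so the NEO1+ libraries lay inside the NEO1- range. The log2 fold change was 0.28 (SE 0.46, edgeR adjusted p 0.998), and leaving out 1 library took it as low as 0.01 (NEO1- library 1) and as high as 0.76 (NEO1- library 3).

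The 2 CBX genes stood at opposite ends in spread. Cbx7, encoding the chromobox protein known to maintain stem cell self-renewal in blood, was at 68.0, 64.2, 60.6, 58.5 and 64.9 CPM in NEO1+ libraries 1 to 5 and at 84.8, 53.4, 77.3, 49.7 and 62.9 CPM in NEO1- libraries 1 to 5. The means were 63.2 ± 3.74 and 65.6 ± 15.1 CPM (SD, n = 5 per group), and the log2 fold change was -0.05 (SE 0.18, 95% interval -0.44 to 0.33, edgeR adjusted p 0.998), the narrowest interval of the 10 genes.

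Cbx2 encodes a chromobox protein that compacts chromatin and had the lowest counts. It was at 9.27, 16.7, 9.07, 16.4 and 17.4 CPM in NEO1+ libraries 1 to 5 and at 5.48, 0, 11.2, 7.75 and 2.35 CPM in NEO1- libraries 1 to 5. Only NEO1- library 3 reached the NEO1+ range, and NEO1- library 2 had 0 counts, which allows up to 0.140 CPM at its depth. The level of 2.35 CPM in NEO1- library 5 rested on 71 counts (exact Poisson 95% interval 1.83 to 2.96 CPM, counting error only). The means were 13.8 ± 4.22 and 5.36 ± 4.42 CPM (SD, n = 5 per group), and the log2 fold change was 1.36 (SE 0.94, 95% interval -0.66 to 3.37, edgeR adjusted p 0.898). It was 1.04 without the library at 0, and the groups no longer overlapped without NEO1- library 3 (1.82, edgeR adjusted p 0.732, with 4.03% of all genes tested then apart). Within NEO1+, libraries 1 and 3 were the lower ones, the same libraries in which Suz12 was low and granulocyte and monocyte markers were high, whereas NEO1- library 3, also high in these markers, had the highest Cbx2 of its group. The part of the markers in the Cbx2 levels was not tested.

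Asxl1 was at 24.4, 39.4, 32.1, 32.0 and 27.8 CPM in NEO1+ libraries 1 to 5 and at 10.2, 44.2, 20.6, 18.1 and 45.0 CPM in NEO1- libraries 1 to 5. The NEO1- libraries fell into 2 above and 3 below the NEO1+ range, and the log2 fold change was 0.17 (SE 0.38, edgeR adjusted p 0.998). The sign turned without NEO1- library 1, at -0.04.

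**Figure D2:**
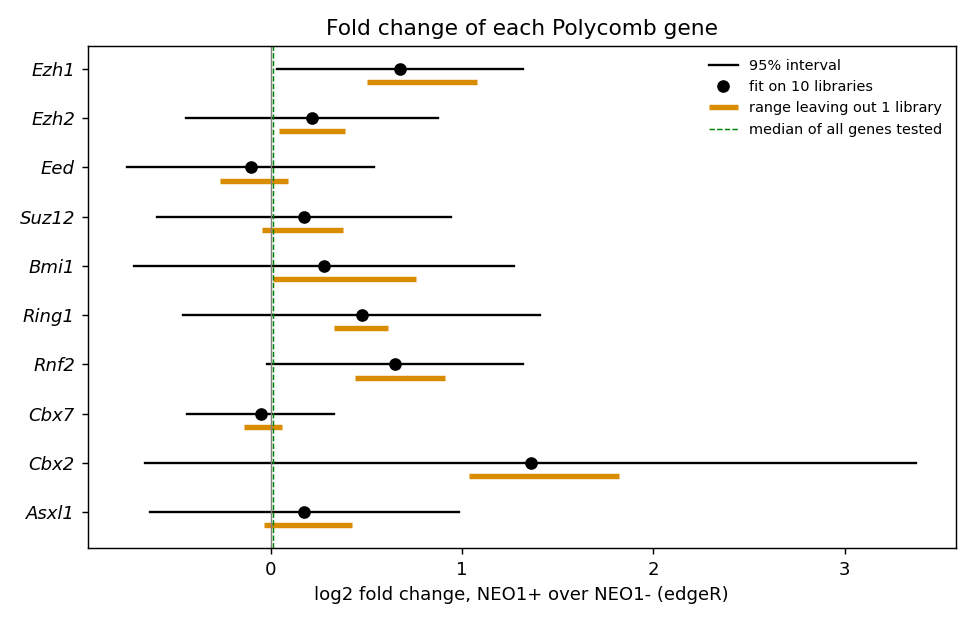
Log2 fold change of NEO1+ over NEO1- libraries from the edgeR fit (points) with 95% intervals (black lines) for each of the 10 genes; orange bars span the fits that each left out 1 of 10 libraries, and the dashed line is the median of all genes tested (0.01). The intervals of 9 genes include 0, and that of Ezh1 runs from 0.03 to 1.32 before adjustment.

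The NEO1- libraries varied more than the NEO1+ libraries. The coefficient of variation, the SD divided by the mean of the CPM values, was larger among NEO1- than among NEO1+ libraries for 9 of the 10 genes, Suz12 being the exception. It was larger among NEO1- libraries for 78.2% of all genes tested, a share that the 10 genes are to be read against. For Ezh1 it was 10.97% in NEO1+ and 57.2% in NEO1- libraries, for Cbx7 5.91% and 23.1%, and for Suz12 51.5% and 10.3%. The lowest of the 10 libraries was a NEO1- library for 9 of the 10 genes and the highest for 5 of the 10. The share of all genes tested for which this holds was not counted, so these counts are not a trait of the 10 genes. NEO1- library 1 was the lowest for Asxl1, Bmi1, Ring1 and Rnf2 and the highest for Cbx7.

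Levels were compared between genes per kb of merged exon length, since the Smart-seq2 protocol reads along whole transcripts. In NEO1+ libraries the order was Rnf2 (22.7 ± 4.77 CPM per kb), Bmi1 (21.2 ± 6.999), Eed (14.2 ± 4.33), Ezh1 (11.8 ± 1.296), Cbx7 (9.75 ± 0.58), Suz12 (6.21 ± 3.20), Ezh2 (6.16 ± 1.63), Asxl1 (4.19 ± 0.76), Ring1 (4.12 ± 0.69) and Cbx2 (3.23 ± 0.99; SD, n = 5). Of the neighbours in this order, Bmi1 and Eed, Ezh1 and Cbx7, Cbx7 and Suz12, and Ezh2 and Asxl1 were further apart than the larger of their SDs, the first pair by a narrow margin. In NEO1- libraries Bmi1 (17.4 ± 12.5 CPM per kb), Eed (15.3 ± 6.32) and Rnf2 (14.4 ± 6.95) led, and Ezh1 (7.39 ± 4.23) followed Cbx7 (10.1 ± 2.33). Suz12 (5.51 ± 0.57), Ezh2 (5.31 ± 2.19), Asxl1 (3.71 ± 2.15), Ring1 (2.97 ± 1.12) and Cbx2 (1.26 ± 1.04; SD, n = 5) came after them. There, Ring1 and Cbx2 were the neighbours further apart than the larger SD.

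Paralogues that occupy the same place in a complex were set against each other within each library, as the log2 ratio of their CPM values. The Ezh2 to Ezh1 ratio was -1.13 ± 0.47 over NEO1+ against -0.58 ± 1.18 over NEO1- (SD, n = 5 per group). Ezh2 was below Ezh1 in 9 of 10 libraries on the CPM scale, and NEO1- library 2, with the lowest Ezh1 and a ratio of 0.96, was the exception. Exon length (7.44 kb for Ezh1, 6.68 kb for Ezh2) was not corrected for in this count. In NEO1- library 1 the ratio was only -0.15, so the count need not hold per kb. The Rnf2 to Ring1 ratio was 2.79 ± 0.31 and 2.55 ± 0.86, and the Cbx2 to Cbx7 ratio -2.25 ± 0.50 and -4.76 ± 2.90 (SD, n = 5 per group). Both groups overlapped in all 3 ratios. The Cbx2 to Cbx7 value in NEO1- rests in part on the library with 0 Cbx2 counts, whose ratio depends on the prior count. The difference between groups for that ratio was 2.51, and 1.27 without this library. The ratios combine members chosen with results known and were not tested.

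**Figure D3:**
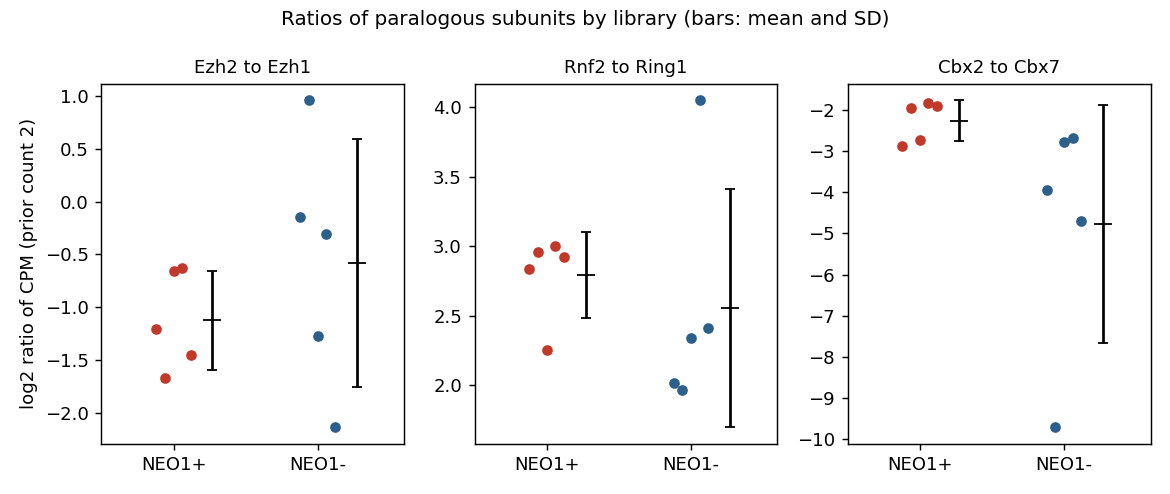
Log2 ratio of CPM (prior count 2) of Ezh2 to Ezh1, Rnf2 to Ring1 and Cbx2 to Cbx7 in each NEO1+ (red) and NEO1- (blue) library, with the mean and SD beside the points; the vertical scales differ. NEO1- libraries spread further than NEO1+ libraries in each panel, from -2.14 to 0.96 for Ezh2 to Ezh1.

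On GRCm38 the gene bodies in GENCODE M21 are at chr11:101191115-101226463 for Ezh1, chr6:47530139-47595341 for Ezh2, chr7:89954654-89980983 for Eed and chr11:79993106-80034123 for Suz12. They are at chr2:18677018-18686629 for Bmi1, chr17:34020792-34024680 for Ring1, chr1:151458004-151500955 for Rnf2, chr15:79915807-79971119 for Cbx7, chr11:119022962-119031270 for Cbx2 and chr2:153345829-153404007 for Asxl1. Exons of 6 of the 10 genes overlap exons of a gene on the opposite strand, by 100 to 261 bases. The library kit does not mark strand, so reads from these bases cannot be assigned to one gene. Such neighbours included Apobec3 opposite Cbx7 (182 ± 14.04 CPM over NEO1+, 160 ± 26.8 CPM over NEO1-) and Trmt1l opposite Rnf2 (56.6 ± 18.6 and 78.6 ± 27.5 CPM; SD, n = 5 per group). On the log2 scale Trmt1l was at -0.47 (SE 0.28, edgeR adjusted p 0.848) and Apobec3 at 0.19 (SE 0.13, adjusted p 0.896) for NEO1+ over NEO1-.

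Other Polycomb genes did not pass the test either. Of the 8 accessory and histone-binding subunits of PRC2, 3 had a log2 fold change above 0 and 0 had an edgeR adjusted p under 0.05 or an unadjusted p under 0.05, with a median of -0.08. Jarid2, which helps to recruit PRC2, was at -0.46 (SE 0.27, edgeR adjusted p 0.847), and Mtf2, another recruiting subunit, at -0.20 (SE 0.13, adjusted p 0.890). Of 9 further canonical PRC1 genes, 3 were above 0, with a median of -0.05 and 0 with an unadjusted p under 0.05. Cbx8 was at -0.84 (SE 0.48, edgeR adjusted p 0.839) and Cbx6, also a chromobox gene, at 0.25 (SE 0.16, adjusted p 0.866). Of 17 variant PRC1 genes, 10 were above 0, with a median of 0.07 and 0 with an unadjusted p under 0.05. Among them Kdm2b, whose protein binds unmethylated CpG islands, was at 0.40 (SE 0.25, edgeR adjusted p 0.876) and Mga, a partner in the PCGF6 complex, at -0.34 (SE 0.23, adjusted p 0.892).

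The PR-DUB complex acts on the ubiquitin that PRC1 attaches. Of its 9 tested genes other than Asxl1, 3 were above 0 and the median was -0.27. Leaving out 1 library moved that median by over 1.5 times for NEO1- library 3 (to -0.08), NEO1+ library 4 (-0.09), NEO1- library 2 (-0.10), NEO1- library 1 (-0.17) and NEO1- library 4 (-0.44), and with the replicate block it was -0.02. The catalytic subunit Bap1 was at 71.5 ± 9.38 CPM over NEO1+ against 95.2 ± 17.2 CPM over NEO1- (SD, n = 5 per group), with log2 fold change -0.41 (SE 0.16, unadjusted edgeR p 0.0252, adjusted p 0.633). Ogt, which glycosylates proteins and joins the complex, was at 114 ± 19.8 and 152 ± 13.7 CPM (SD, n = 5 per group), with log2 fold change -0.42 (SE 0.14, unadjusted edgeR p 0.0104, adjusted p 0.550). These were the 2 of 9 genes with an unadjusted p under 0.05, both lower in NEO1+, against 3.49% of all genes in that direction.

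Trithorax-group genes counter Polycomb silencing, many of them as parts of complexes that methylate lysine 4 of histone H3. They were read gene by gene as the opposing group, with no test of the group. Of 12 genes, 1 was above 0 (Men1) and 11 below, with a median of -0.29, where 51.0% of all genes tested were above 0. With the replicate block 3 were above 0. An unadjusted p under 0.05 was found for 2 (Kmt2b and Ash1l, both lower in NEO1+), against 3.49% of all genes in that direction. Kmt2b was at 10.6 ± 4.16 CPM over NEO1+ against 24.7 ± 7.88 CPM over NEO1- (SD, n = 5 per group), with log2 fold change -1.23 (SE 0.37, unadjusted edgeR p 0.00542, adjusted p 0.483). Its libraries ran from 6.29 to 16.9 CPM in NEO1+ and from 16.4 to 36.7 CPM in NEO1-, so that they overlapped by 1 library on each side. Ash1l, a histone methyltransferase of the same group, was at -0.41 (SE 0.17, unadjusted edgeR p 0.0327, adjusted p 0.701), and its groups did not overlap, which held for 1.13% of all genes in that direction, although NEO1+ library 1 and NEO1- library 2 were within 1 CPM. The H3K27 demethylases Kdm6b and Kdm6a were at -0.26 (SE 0.28) and -0.19 (SE 0.36), with edgeR adjusted p values of 0.980 and 0.998.

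**Figure D4:**
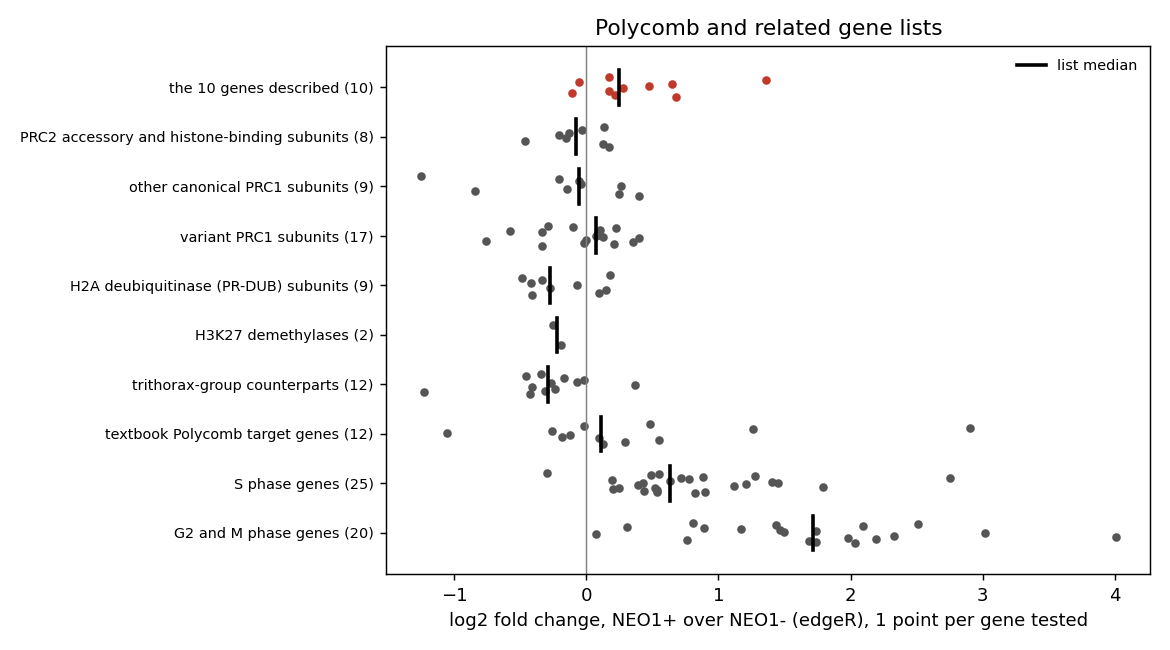
Log2 fold change of NEO1+ over NEO1- (horizontal axis, edgeR) for every gene tested in each list, 1 point per gene, with the list median as a black bar and the number tested in brackets. The median is 0.25 for the 10 genes described, -0.29 for trithorax-group genes, 0.63 for S phase genes and 1.71 for G2 and M phase genes.

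Among 20 genes that Polycomb is known to silence, 12 could be tested. Hoxb5 is in this list, and its expression was selected by the gate in all libraries. Cdkn2a, the cell cycle inhibitor locus that Bmi1 represses, had 0 counts in all 10 libraries, which allows up to 0.0699 to 0.144 CPM per library. Its neighbour Cdkn2b had 16 counts in NEO1+ library 4 and 0 in the other 9 libraries. Pax5, Gata4, Gata6, Sox2 and Sox17, regulators of other lineages, likewise had 0 counts in all libraries. Of the 12 tested genes, 7 were above 0, with a median of 0.11, and 1 had an unadjusted p under 0.05, against 3.11% of all genes in that direction. That gene was Hoxa5, at 36.4 ± 4.64 CPM over NEO1+ against 24.9 ± 6.58 CPM over NEO1- (SD, n = 5 per group), with log2 fold change 0.55 (SE 0.24, edgeR adjusted p 0.721). Cdkn1c, which encodes the cell cycle inhibitor p57, was at 0.30 (SE 0.14, edgeR adjusted p 0.757).

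Cell cycle genes are given beside Ezh2 because E2F factors are known to drive both. Among all genes tested, 51.0% had a log2 fold change above 0, and 3.11% were higher in NEO1+ with an unadjusted edgeR p under 0.05. Of 25 S phase genes, 24 were above 0, with a median of 0.63 and 9 with an unadjusted edgeR p under 0.05. Of 20 G2 and M phase genes, all 20 were above 0, with a median of 1.71 and 10 with an unadjusted p under 0.05. Every NEO1+ library was above every NEO1- library for 3 of the 25 S phase genes and 8 of the 20 G2 and M phase genes. This held for 1.35% of all genes in that direction. The 4 genes named next were among them, and they were chosen by smallest p. None of the 45 passed adjustment, with Mcm4 of the replicative helicase at 0.90 (SE 0.18, edgeR adjusted p 0.248), Uhrf1 at 1.41 (SE 0.34, adjusted p 0.297), the mitotic kinase Cdk1 at 1.69 (SE 0.31, adjusted p 0.155) and Hmgb2 at 0.81 (SE 0.21, adjusted p 0.368). S phase genes summed to 1701 to 2462 CPM (NEO1+) and 1028 to 1770 CPM (NEO1-), and G2 and M phase genes to 608 to 994 and 202 to 446 CPM. In NEO1+ libraries 1 to 5 the S phase sums were 1825, 1837, 1927, 2462 and 1701 CPM, against 1770, 1138, 1028, 1569 and 1201 CPM in NEO1- libraries 1 to 5. The largest sum and the highest Ezh2 were both in NEO1+ library 4, and the smallest sum and the lowest Ezh2 in NEO1- library 3. The libraries between them were not in the same order, as NEO1- library 2 had the second highest Ezh2 and the second smallest sum. Whether the log2 fold change of Ezh2 differs from those of the S phase genes was not tested.

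The genes whose log2 CPM ran most like that of each EZH gene over the 10 libraries were sought among 8869 genes with a mean log2 CPM of at least 3. For Ezh2 they were Dera, Rhoa, Pole3, Tor1b and Scarf1, with Pearson correlations from 0.95 to 0.91. For Ezh1 they were Ercc6, Cavin2, Sema4d, A230050P20Rik and Aasdh, with correlations from 0.93 to 0.89. These are the extremes of a search over many genes and 10 libraries that differ in group and depth, and they are a description. Of the Ezh1 set, Cavin2 had the smallest p, with a log2 fold change of 0.87 (edgeR adjusted p 0.248), and of the Ezh2 set, Dera had the smallest p, with 0.35 (adjusted p 0.916).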

How the data were processed

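RNA-seq was measured in 10 libraries prepared by Smart-seq2 with 18 cycles of PCR and no molecular identifiers, per the labels' protocols, so read counts are not counts of molecules. The authors deposited raw counts per gene symbol and a table of log2 values, each equal to log2 of the count over 1 factor per library, plus 1 (largest residual 5.15e-14). Build mm10, STAR 2.4 and DESeq2 1.22.2 are named per the submitters' processing notes; the annotation is not given in the sources used here. Gene positions and lengths came from GENCODE M21 on GRCm38.

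Counts were fitted with edgeR 4.0.16 (R 4.3.3) by robust quasi-likelihood after filterByExpr and TMM over all genes, with Benjamini-Hochberg adjustment. SE is the size of the log2 fold change divided by the root of F. Log2 CPM used a prior count of 2. DESeq2 1.42.0 and limma 3.58.1 were alternatives. The tests were also run on simulated data, where recovery was required only of edgeR and at a smaller spread than in these data. Recovery at the spread of these data is not reported here. The members and gene lists were chosen with earlier results of these data known. Named genes are the 10 members, Neo1, Cdkn2a, Cdkn2b, the 2 of smallest p in each list where none passed, and the 5 genes most like Ezh1 and Ezh2; any other gene was named with its values in view. The marker Trac was not found by symbol, and 1 other marker is not reported here by name.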

Additional observations from a re-analysis of the deposited data

Results flagged for a closer look

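A library was set apart when its gap to the nearest library of its group exceeded Dixon's 95% critical value for 5 samples (0.71 of the group's range). This was so in 10 of 112 groups of 5 values, where chance gives about 5.6. The Rnf2 to Ring1 log2 ratio was 2.25 in NEO1+ library 3, where the others had 2.83 to 3.00, and 4.05 in NEO1- library 4, against 1.96 to 2.41. The Cbx2 to Cbx7 log2 ratio was -9.72 in NEO1- library 2, which had 0 Cbx2 counts, against -4.71 to -2.67. None of the 10 Polycomb genes was set apart by its own log2 CPM in either group.

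Among the other genes, the log2 CPM of Bap1 was 5.78 in NEO1+ library 4 and 6.19 to 6.26 elsewhere in NEO1+. Ash1l was at 5.97 log2 CPM in NEO1+ library 2, the others at 6.30 to 6.36. Mga was at 5.40 log2 CPM in NEO1- library 2, the others at 6.23 to 6.50. In NEO1+ library 4 the log2 CPM of Neo1 was 3.65, with 5.61 to 6.02 elsewhere in NEO1+. Cd79b was at 5.66 log2 CPM in NEO1+ library 2, the others at 5.05 to 5.13. Kdr was at 2.09 log2 CPM in NEO1+ library 2, the others at 3.70 to 4.19, and at -3.98 in NEO1- library 3, where it had 0 counts, against 1.86 to 4.04.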

How the results depend on the processing

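Of 180 values of the 10 genes under 18 alternatives, 165 kept their sign and their side of the adjusted threshold, 13 changed sign and 2 passed. The latter were Ezh1 (log2 fold change 0.82, adjusted p 0.0176) and Rnf2 (0.77, adjusted p 0.0376) in DESeq2 with the replicate block. The labels do not say whether same-numbered libraries share a pool of mice. Deviations of same-numbered libraries correlated at 0.0040 to 0.036 over 12203 genes, and 4 of 10 libraries correlated best with their own number. Correlations of this kind cannot decide whether the numbers pair the libraries. In edgeR the block called 0 genes, and 2 of the 10 genes had an unadjusted p under 0.05 (Ezh1 and Rnf2), with Ezh1 at 0.83. Suz12 reversed to -0.0079 with the block in edgeR, to -0.013 with it in DESeq2 and to -0.024 with limma-trend on the deposited log2 values; these 3 fits moved the median of all genes to 0.10, 0.13 and 0.11. With genes detected as a covariate Cbx7 reversed to 0.32 and Asxl1 to -0.14. Leaving out each library gave ranges of 0.50 to 1.08 for Ezh1, 0.04 to 0.39 for Ezh2, -0.26 to 0.088 for Eed, -0.043 to 0.38 for Suz12, 0.01 to 0.76 for Bmi1, 0.33 to 0.61 for Ring1, 0.44 to 0.91 for Rnf2, -0.14 to 0.057 for Cbx7, 1.04 to 1.82 for Cbx2 and -0.036 to 0.42 for Asxl1. DESeq2 called 146 genes and DESeq2 with the block 742, the fit with no filter on low counts 2, and leaving out 1 library 0 to 1. The number of the 10 genes with an unadjusted p under 0.05 was 2 with DESeq2 (9.73% of all genes), with no filter (11.7%) and with limma-trend (9.37%), 3 with DESeq2 and the block (14.4%), 1 with genes detected as a covariate (Eed; 2.27%), and 0 to 1 without 1 library (5.00% to 7.98%). The number above 0 was 7 to 9, where 51.0% of all genes tested were above 0 in the main fit. When 1 library was left out, 0 to 1 of the 10 were apart without overlap, against 3.2% to 4.56% of all genes tested. The PR-DUB median moved to -0.02 with the block, and 1 to 3 of 12 trithorax-group genes were above 0. Without 1 library the medians ran from -0.20 to -0.02 for PRC2 accessory genes (0.03 with the block), -0.21 to 0.03 for canonical PRC1, -0.05 to 0.08 for variant PRC1 and 0.03 to 0.25 for Polycomb targets. Group differences of the log2 ratios, leaving out each library, were -0.93 to -0.16 for Ezh2 to Ezh1, 0.09 to 0.61 for Rnf2 to Ring1 and 1.27 to 3.03 for Cbx2 to Cbx7. The cause of these changes was not tested. Counts of 71 or more stood behind every member value above 0, which bears on counting error only, since reads after PCR are not independent molecules.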

Other observations

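Among the cell type markers, the 2 genes of smallest p in each list did not pass adjustment in edgeR (adjusted p 0.155 to 0.998). Their log2 fold changes of NEO1+ over NEO1- were 1.504 for Tek and 0.63 for Ctnnal1 (stem cells), 0.50 for Lyz2 and 2.68 for Camp (granulocytes and monocytes) and 2.98 for Alas2 and 0.12 for Car2 (erythroid cells). They were 0.78 for Vwf and 0.58 for Itga2b (megakaryocytes), -1.11 for Vpreb1 and 0.05 for Cd79b (B cells), 1.32 for Klrb1c and -1.04 for Nkg7 (T and NK cells) and 0.91 for Pecam1 and 1.01 for Kdr (endothelial cells). Genes picked by smallest p do not stand for their lists. Of the markers tested, 7 of 12 for stem cells and 6 of 10 for granulocytes and monocytes were above 0. This held for 8 of 8 erythroid markers and 4 of 8 for megakaryocytes and platelets. It also held for 1 of 2 for B cells, 1 of 2 for T and NK cells and 4 of 4 for endothelial and stromal cells. Of all genes tested, 51.0% were above 0.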
